A study of Mus musculus with 6 samples.

Results

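The solute carrier family Slc22 and the organic anion transporting polypeptides, Slco, were followed in kidney RNA as 39 genes, 25 of Slc22 and 14 of Slco, out of 24346 gene symbols measured. Members were chosen by symbol, every Slc22a gene with a number and every Slco gene, leaving out Slco1a1 and the pseudogene Slc22a13b-ps. The 6 samples came from mice that had lost 1 kidney by unilateral nephrectomy. The D-serine group (3 samples) drank water with 0.1% D-serine and the vehicle group (3 samples) drank water without it. Both groups ate a serine-free diet for 1 week before surgery, and kidneys were taken 2 days after it. No source used here gives the strain, sex or age of the mice, and mice with a sham operation were not analysed here. Whether the samples of a group are separate mice is not in the labels; the p-values below rest on the spread among the samples, which may in part be technical.

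Cells of the proximal tubule clear drugs, toxins and metabolites from the blood with these proteins. Organic anion and cation transporters of the Slc22 family on the blood side take up charged molecules, others on the urine side exchange them with the tubular fluid, and carnitine carriers reclaim carnitine from the filtrate. Slco proteins carry larger amphipathic molecules such as steroid conjugates, thyroid hormones and prostaglandins. Several genes of both families are known to differ in level between male and female mouse kidneys.

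Levels are given as FPKM, fragments scaled to the length of the transcript and to the number of mapped fragments, so that levels of different genes can be set side by side. The low values rise in whole steps, from which a rough depth of 7220000 to 8640000 fragments per sample followed, or of 7880000 to 9420000 fragments if 200 bases are taken off each transcript length. Proximal tubule markers were abundant, as in kidney. Some samples stood apart within their group. D-serine replicate 2 had the lowest weight, 0.394, when samples were weighted by their spread, where the other samples had 0.894 to 1.47. Vehicle replicate 2 was low in some early proximal tubule markers, with 11.1 FPKM of the glucose carrier gene Slc5a2 against 55.9 and 56.6 FPKM in the other vehicle samples. It was not the lowest vehicle sample for 4 of the 12 such markers (Lrp2, Cubn, Miox and Pck1), and their summed level there was 8172 FPKM, where the highest vehicle sample had 10040 FPKM. It was also low in podocyte markers, with a summed level of 9.57 FPKM where the highest vehicle sample had 49.1 FPKM. D-serine replicate 1 held the highest levels of dividing cell markers, with a summed level of 162 FPKM where the lowest D-serine sample had 47.1 FPKM and the vehicle samples 9.56 to 11.6 FPKM.

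Of the 39 genes, 23 averaged 1 FPKM or more across the samples and were tested, and 16 were below it. The tested genes spanned a wide range of levels. Slc22a12, which encodes the urate exchanger Urat1, was the most abundant and made up 30.9% of the summed FPKM of the 39 genes in the D-serine kidneys and 33.8% in the vehicle kidneys. Behind it in mean level stood Slc22a6, Slc22a18, Slc22a2, Slc22a8 and Slc22a5, among others, from 501 down to 106 FPKM. Sample values of Slc22a6 overlapped with those of Slc22a18, and those of Slc22a2 with those of Slc22a8, while Slc22a12 stood above all others in every sample. The summed level of the 39 genes was 2834, 2761 and 3404 FPKM in the D-serine samples and 3733, 4092 and 3887 FPKM in the vehicle samples. Every D-serine sum lay below every vehicle sum. In bulk tissue, fewer cells of a type and less RNA per cell cannot be told apart.

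**Figure D1:**
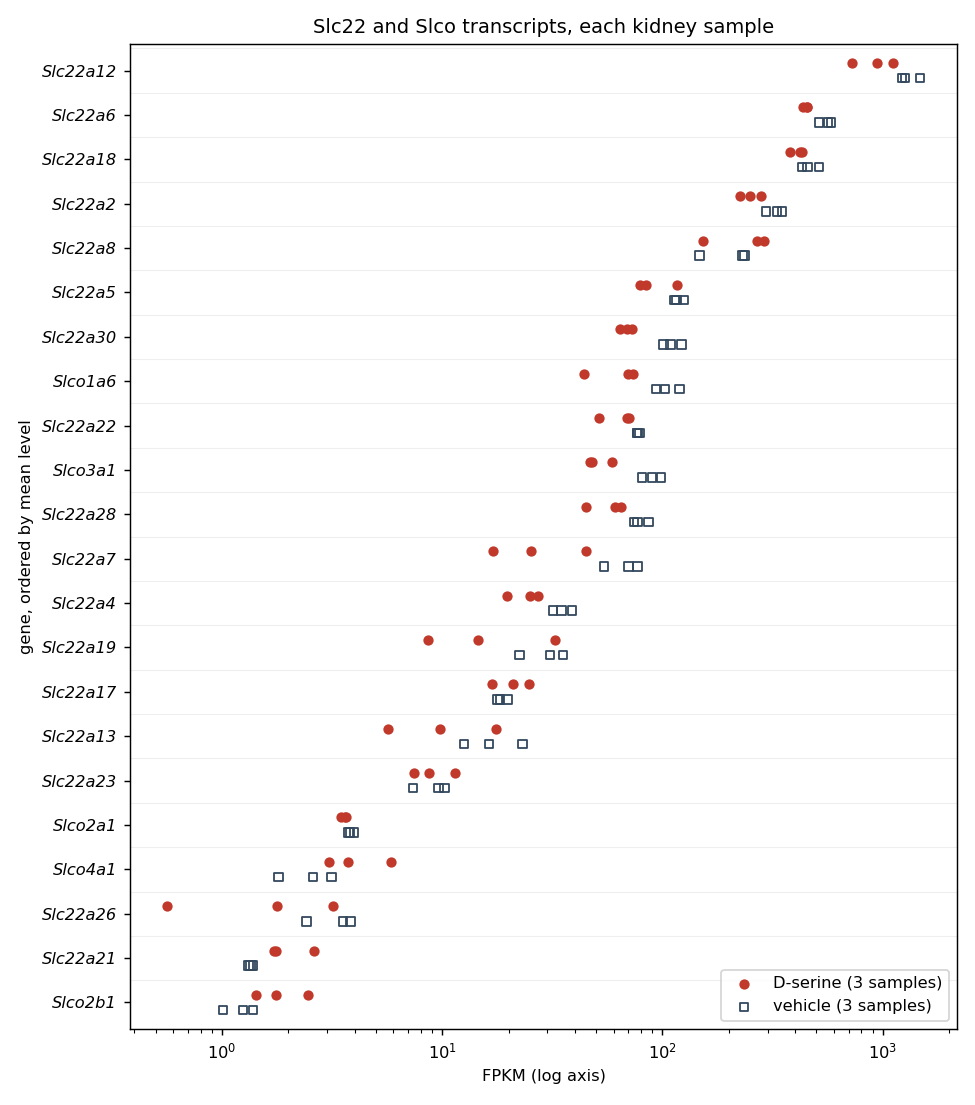
FPKM (log axis) of 22 of the 23 tested Slc22 and Slco genes in every kidney sample, with D-serine samples as filled circles above vehicle samples as open squares and genes ordered by mean level. The 3 D-serine values lay below the 3 vehicle values in 11 genes and above them in 2, Slc22a21 and Slco2b1.

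Most of these transcripts averaged lower in the D-serine kidneys. The log2 difference, D-serine minus vehicle on log2(FPKM + 1), was negative in 17 of the 23 genes (51.1% of all tested genes had a negative one) and positive in 6, with a median of -0.37, while the median over all 11737 genes tested was -0.01. In 11 genes (Slc22a2, Slc22a4, Slc22a6, Slc22a7, Slc22a12, Slc22a22, Slc22a28, Slc22a30, Slco1a6, Slco2a1 and Slco3a1) all D-serine values lay below all vehicle values, where 19.4% of all tested genes did so. In 2 genes they lay above, where 16.5% of all tested genes did so. No gene of the 39 passed an adjusted p of 0.05 in limma, which called 0.0767% of all tested genes (9 of 11737). Slc22a30 and Slco3a1 passed under 6 other settings, at which the share of all tested genes called was 1.46% and 1.88% (pseudocounts of 0.1 and 0.01), 1.61% (minimum of 5 FPKM), 0.656% (sum scaling), 2.29% (sample weights) and 2.85% (small RNA genes left out). Without D-serine replicate 3, limma called 4 of the 23 lower (Slc22a5, Slc22a7, Slc22a30 and Slco3a1) and 3.72% of all tested genes. At an unadjusted p under 0.05, with all samples, limma had 9 of the 23 lower and 1 higher, against 14.6% lower and 13.1% higher over all tested genes. An exact permutation test of 3 against 3 samples has 0.1 as its smallest two-sided p and was not run.

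The genes were also split by level. Of 12 members with a mean of at least 50 FPKM, 11 had a negative difference and 8 had D-serine values wholly below the vehicle values, with a median of -0.38. Over all 1937 tested genes at that level the share wholly below was 24.5% and the median -0.02. Of the 11 members between 1 and 50 FPKM, 6 were negative, 3 lay wholly below and 2 wholly above, with a median of -0.08. Over the 9800 tested genes at that level 18.4% lay wholly below and 15.4% wholly above, and the median was -0.01.

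**Figure D2:**
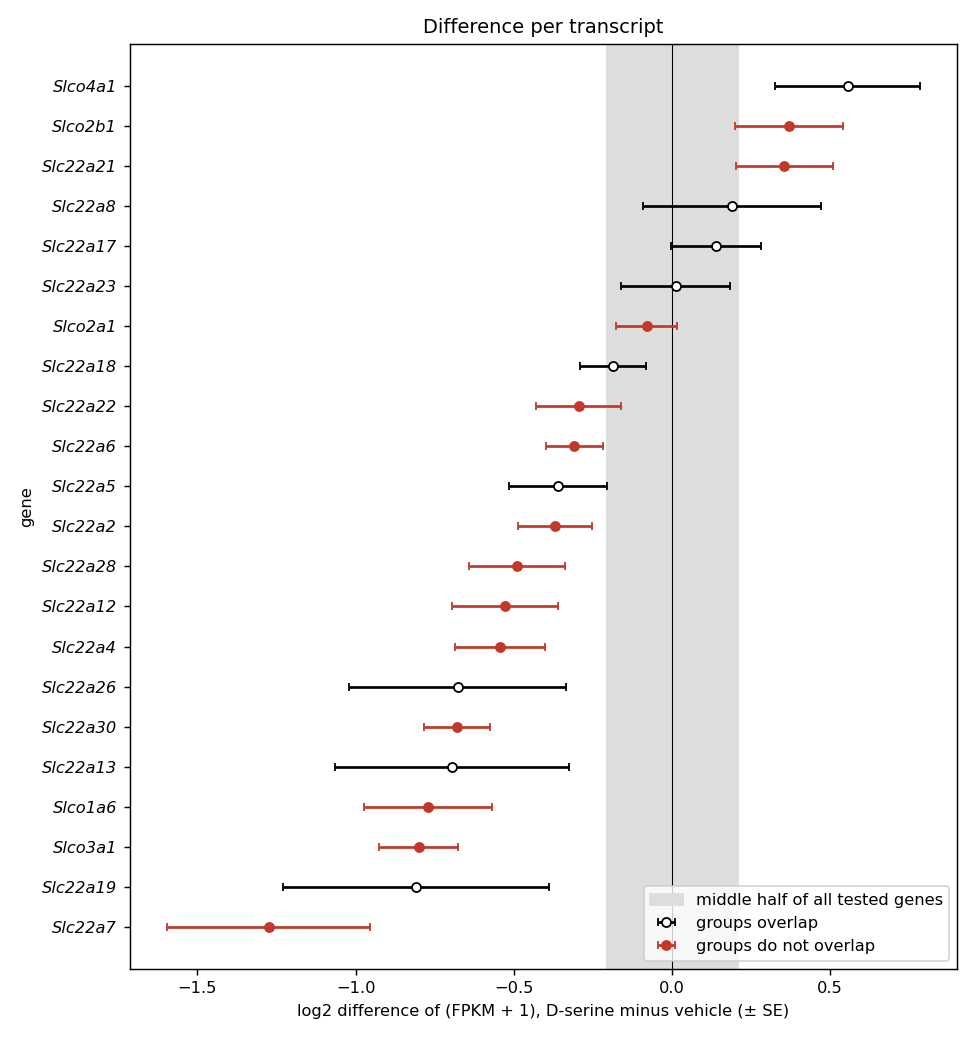
Log2 difference of (FPKM + 1), D-serine minus vehicle, with its SE for 22 of the 23 tested genes (3 samples per group); filled red points mark genes whose groups did not overlap, and the grey band is the interquartile range of all tested genes, -0.21 to 0.21. Slc22a7 lies farthest left at -1.27 and Slco4a1 farthest right at 0.55.

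The organic cation carrier Slc22a2 (Oct2), which brings positively charged drugs and amines into tubule cells from the blood, lies on chromosome 17 beside its relative Slc22a3 (Oct3). Slc22a2 (12584132 to 12628488, mm10) was at 225, 250.1 and 280 FPKM in the D-serine samples and at 295, 349 and 331 FPKM in the vehicle samples. The groups did not overlap, and the log2 difference was -0.37 ± 0.12 (SE, n = 3 each, limma adjusted p = 0.11). Slc22a3 stayed between 0.0365 and 0.216 FPKM and was not tested.

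The carnitine and zwitterion carriers Slc22a4, Slc22a5 and Slc22a21 lie together on chromosome 11. Slc22a5 (Octn2; 53864542 to 53891660), the sodium-coupled carrier that reclaims carnitine, whose loss in mice causes carnitine deficiency, was at 78.8, 83.9 and 117 FPKM in the D-serine samples and at 113, 116 and 125 FPKM in the vehicle samples. D-serine replicates 1 and 2 were low and replicate 3 lay within the vehicle range (log2 difference -0.36 ± 0.15 SE, n = 3 each, limma adjusted p = 0.18). Slc22a4 (Octn1; 53983123 to 54028090), a carrier of the antioxidant ergothioneine, had 19.6, 27.3 and 24.9 FPKM with D-serine and 38.9, 31.7 and 34.8 FPKM with vehicle. Its groups were apart, with a log2 difference of -0.54 ± 0.14 (SE, n = 3 each, limma adjusted p = 0.085). Slc22a21 (Octn3; 53949965 to 53980332), a carnitine carrier known from mice, ran the other way, at 1.76, 2.61 and 1.72 FPKM with D-serine and 1.32, 1.38 and 1.35 FPKM with vehicle. These groups did not overlap either, with a log2 difference of 0.35 ± 0.15 (limma adjusted p = 0.18), or 0.22 without D-serine replicate 2. Slc22a21 is uncertain, because 21.7% of the 50-base stretches of its transcripts also stand in the far more abundant Slc22a5, and how the authors' counting split such fragments was not tested. Slc22a16, a carnitine carrier of testis, was listed at 0 in all 6 samples.

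The urate and nicotinate exchangers of the urine side were both lower on average. Slc22a12 (chromosome 19, 6535845 to 6543032) was at 942, 722 and 1114 FPKM in the D-serine samples and at 1223, 1474 and 1261 FPKM in the vehicle samples. All D-serine values lay below all vehicle values (log2 difference -0.53 ± 0.17 SE, n = 3 each, limma adjusted p = 0.11). The log2 difference of Slc22a12 was -0.36 without D-serine replicate 2. On the opposite strand, Nrxn2 exons overlap 30.1% of the exon bases of Slc22a12, but Nrxn2 itself stood at only 0.706 to 1.49 FPKM. Slc22a13 (chromosome 9, 119192974 to 119209098), known in humans as the exchanger OAT10, was at 5.68, 9.73 and 17.5 FPKM with D-serine and 23.1, 12.5 and 16.3 FPKM with vehicle. Its groups overlapped because D-serine replicate 3 stood within the vehicle range, and its log2 difference of -0.70 had an SE of 0.37 and was -0.34 without D-serine replicate 1 and -1.07 without D-serine replicate 3.

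Of the 3 organic anion carriers Oat1, Oat2 and Oat3, Slc22a7 and Slc22a6 averaged lower and Slc22a8 higher, none past the threshold. The differences between the genes were not tested. Slc22a7 (Oat2; chromosome 17, 46432183 to 46438457), known in humans to carry cyclic GMP among other anions, was at 16.9, 25.3 and 44.9 FPKM in the D-serine samples and at 70.2, 77.1 and 54.1 FPKM in the vehicle samples. The groups were apart, though D-serine replicate 3 came close to the lowest vehicle sample, and the log2 difference was -1.27 ± 0.32 (SE, n = 3 each, limma adjusted p = 0.081), a fold of 0.414. Slc22a6 (Oat1; chromosome 19, 8618039 to 8628299), the main uptake carrier for para-aminohippurate and many drugs, was at 435, 451 and 455 FPKM with D-serine and 514, 584 and 566 FPKM with vehicle. Its 3 D-serine values lay close together and below all vehicle values (-0.31 ± 0.090 SE, limma adjusted p = 0.098). Slc22a8 (Oat3; 8591254 to 8611835), its neighbour and partner in basolateral uptake, was at 153, 289 and 270 FPKM with D-serine and 230, 147 and 236 FPKM with vehicle. The ranges overlapped, with D-serine replicate 1 and vehicle replicate 2 low. The log2 difference was 0.19 ± 0.28, and without vehicle replicate 2, the sample low in Slc5a2, it was -0.03. Whether the low Slc5a2 of that sample bears on its level of Slc22a8 was not tested.

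Slc22a6 and Slc22a8 stand at the end of a run of 8 members on chromosome 19, from 7673061 (Slc22a19) to 8628299 (Slc22a6), of which 6 were tested and 5 had a negative difference. Over all tested genes 51.1% had a negative one. The promoter windows of Slc22a28 and Slc22a30 are shown because they are near copies of each other and both genes averaged lower. Each runs from 250 bases before to 50 bases after the start (RefSeq, GRCm38.p6, the assembly called mm10), 5′ to 3′ on the minus strand, where both genes lie, at chr19:8131933-8132232 and chr19:8405056-8405355. Capitals mark the 12 bases in each that have no identical partner in the alignment of the pair, those at the outer end coming from the offset between the windows.
Slc22a28: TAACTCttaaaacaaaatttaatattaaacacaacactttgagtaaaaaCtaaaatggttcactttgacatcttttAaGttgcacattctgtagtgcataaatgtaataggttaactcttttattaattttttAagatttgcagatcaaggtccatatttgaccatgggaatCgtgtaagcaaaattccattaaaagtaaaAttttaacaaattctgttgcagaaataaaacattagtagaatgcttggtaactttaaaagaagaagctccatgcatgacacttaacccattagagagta
Slc22a30: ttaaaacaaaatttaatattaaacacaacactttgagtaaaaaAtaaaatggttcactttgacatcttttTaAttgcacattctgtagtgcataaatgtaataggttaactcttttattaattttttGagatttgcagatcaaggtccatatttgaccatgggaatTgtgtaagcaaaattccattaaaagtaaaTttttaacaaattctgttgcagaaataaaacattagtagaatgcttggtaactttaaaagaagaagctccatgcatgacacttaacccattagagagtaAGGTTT

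The windows of this pair had 94.1% identity. Among other pairs of the 6 tested genes of the run, identity was 61.5% between Slc22a19 and Slc22a30 and 48.6% between Slc22a6 and Slc22a8. Windows were found for 34 of the 39 members.

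Within the run, Slc22a30 and Slc22a28, rodent relatives of the organic anion carriers whose substrates are little known, were both lower. Slc22a30 (8335371 to 8405111) was at 64.2, 72.7 and 68.8 FPKM in the D-serine samples and at 101, 122 and 109 FPKM in the vehicle samples. The groups stood well apart, with a log2 difference of -0.68 ± 0.11 (SE, n = 3 each, limma adjusted p = 0.057) that stayed between -0.74 and -0.61 whichever sample was left out. Its adjusted p was 0.039 when small RNA genes, which are poorly captured in mRNA libraries, were left out of the table, and over all alternatives it ranged from 0.037 to 0.23. Slc22a28 (8062209 to 8131982) was at 64.9, 44.8 and 60.7 FPKM with D-serine and 77.1, 86.6 and 74.3 FPKM with vehicle, again without overlap (-0.49 ± 0.15 SE, limma adjusted p = 0.11). Without D-serine replicate 2 its log2 difference was -0.33. The pair share parts of their transcripts as well: 53.3% of the 50-base stretches of Slc22a28 also stand in Slc22a30, and 31.0% of those of Slc22a30 stand in Slc22a28. The division of fragments between them is therefore uncertain. Both were lower, but with shared stretches the pair does not give independent readings.

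Slc22a19 (Oat5; 7673061 to 7711310), known in rats as an anion exchanger of the urine side of the late proximal tubule, was at 8.62, 14.6 and 32.7 FPKM with D-serine and 35.3, 30.9 and 22.4 FPKM with vehicle. The groups overlapped because D-serine replicate 3 stood within the vehicle range, and the log2 difference of -0.81 had an SE of 0.42 and was -0.39 without D-serine replicate 1 and -1.30 without D-serine replicate 3. Slc22a26 (7781041 to 7802667) was low, at 1.78, 0.563 and 3.20 FPKM with D-serine and 3.53, 3.83 and 2.42 FPKM with vehicle, and its groups overlapped in the same sample (-0.68 ± 0.34 SE, and -0.30 without D-serine replicate 2). Slc22a27 and Slc22a29, which share 25.3% of the stretches of Slc22a27, did not exceed 0.122 and 0.570 FPKM. Off the run, Slc22a22 (chromosome 15, 57243767 to 57477625), the mouse prostaglandin carrier OAT-PG, was at 68.8, 51.3 and 70.7 FPKM with D-serine and 77.2, 78.7 and 76.6 FPKM with vehicle. The vehicle samples lay close together and all D-serine values lay below them (-0.30 ± 0.13 SE, limma adjusted p = 0.20), but the log2 difference was -0.15 without D-serine replicate 2. Slc22a20, an anion carrier of olfactory tissue, was listed at 0 throughout.

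Slc22 genes without a settled transport role had 3 tested members, with a median log2 difference of 0.01. Slc22a18 (chromosome 7, 143473736 to 143499334), an imprinted gene, was at 378, 431 and 419 FPKM in the D-serine samples and at 431, 455 and 513 FPKM in the vehicle samples, so that the groups just touched (-0.19 ± 0.11 SE). Slc22a17 (chromosome 14, 54906304 to 54913132), which encodes a receptor for the iron-binding protein lipocalin 2, was at 16.8, 24.8 and 20.9 FPKM with D-serine and 18.3, 17.8 and 19.7 FPKM with vehicle. Slc22a23 (chromosome 13, 34179158 to 34345182) was at 7.48, 8.74 and 11.4 FPKM and at 10.2, 7.38 and 9.59 FPKM in the same groups. The groups overlapped in both genes, with log2 differences of 0.14 and 0.01, and scaling samples to the same FPKM sum without the 10 most abundant genes gave -0.011 for Slc22a23. Slc22a14 and Slc22a15 did not exceed 0.295 and 0.354 FPKM.

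Among the Slco genes, Slco3a1 and Slco1a6 were the abundant ones and both were lower. Slco3a1 (chromosome 7, 74275419 to 74554780), a carrier of prostaglandins and thyroid hormone, was at 47.7, 46.9 and 58.9 FPKM in the D-serine samples and at 89.6, 98.4 and 80.8 FPKM in the vehicle samples. The groups were far apart, with a log2 difference of -0.80 ± 0.13 (SE, n = 3 each, limma adjusted p = 0.057) and a fold of 0.574. Its adjusted p, like that of Slc22a30, was 0.039 with small RNA genes left out and ranged from 0.037 to 0.23 over all alternatives. Slco1a6 (chromosome 6, 142085761 to 142208521), a kidney member of the Slco1 cluster, was at 69.7, 43.9 and 73.3 FPKM with D-serine and 93.4, 119 and 102 FPKM with vehicle. No D-serine value reached the vehicle range (-0.77 ± 0.20 SE, limma adjusted p = 0.085), and the log2 difference was -0.54 without D-serine replicate 2. Its transcripts share 2.22% of their 50-base stretches with relatives, Slco1a1 included. The other measured Slco1 genes were near or at 0: Slco1a4 ranged from 0.230 to 0.630 FPKM, Slco1b2, the liver uptake carrier, reached 0.164 FPKM, and Slco1a5 and Slco1c1 were listed at 0.

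Of the other tested Slco genes, all low, 2 averaged higher and 1 lower. Slco4a1 (chromosome 2, 180456245 to 180474867), which carries thyroid hormone, was at 3.05, 5.85 and 3.75 FPKM with D-serine and 1.801, 2.58 and 3.14 FPKM with vehicle. The ranges met at D-serine replicate 1 and vehicle replicate 3, and the log2 difference was 0.55 ± 0.23 (limma adjusted p = 0.17), or 0.34 without D-serine replicate 2. Slco2b1 (chromosome 7, 99657804 to 99711340), a carrier of steroid sulfates, was at 1.76, 1.43 and 2.44 FPKM with D-serine and 1.24, 1.01 and 1.38 FPKM with vehicle, without overlap (0.37 ± 0.17 SE, limma adjusted p = 0.20, and 0.23 without D-serine replicate 3). With quantile normalization its groups overlapped, and Gm15635 on the opposite strand overlaps 7.91% of its exon bases. Slco2a1 (chromosome 9, 102988712 to 103096002), the prostaglandin transporter found in endothelium, was at 3.63, 3.64 and 3.48 FPKM and at 3.82, 3.97 and 3.74 FPKM in the same groups, a small gap without overlap (-0.08 ± 0.097 SE). With a length and GC trend removed, the groups of Slco2a1 overlapped and its log2 difference was -0.0013. Summed endothelial markers ranged from 27.6 to 45.4 FPKM with D-serine and from 18.2 to 35.3 FPKM with vehicle. Slco4c1, known in humans as a basolateral carrier of digoxin and thyroid hormone, missed the minimum with a mean of 0.929 FPKM, at 0.380, 0.290 and 0.714 FPKM with D-serine and 2.18, 0.457 and 1.56 FPKM with vehicle. Slco5a1 was listed at 0 in all samples but D-serine replicate 3 (0.0144 FPKM), and the testis genes Slco6b1, Slco6c1 and Slco6d1 were at 0 in all.

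The order of samples within a group was described by counting which stood highest or lowest. Among the D-serine samples, replicate 3 held the highest value in 14 of the 23 genes and replicate 1 the lowest in 13, while over all tested genes replicate 3 was highest in 31.8% and replicate 1 lowest in 26.6%. Among the vehicle samples, replicate 2 was highest in 12 of the 23, against 37.2% of all tested genes. Among the 17 members that averaged lower, D-serine replicate 3 was highest of its group in 70.6% and D-serine replicate 1 lowest in 52.9%, and vehicle replicate 2 was highest of its group in 64.7%. Over the 5997 tested genes that averaged lower the same shares were 45.8%, 21.6% and 42.8%. D-serine replicate 2 was lowest of its group in 60.25% of those genes and in 41.18% of the 17 members. The members within a sample are not independent of each other.

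**Figure D3:**
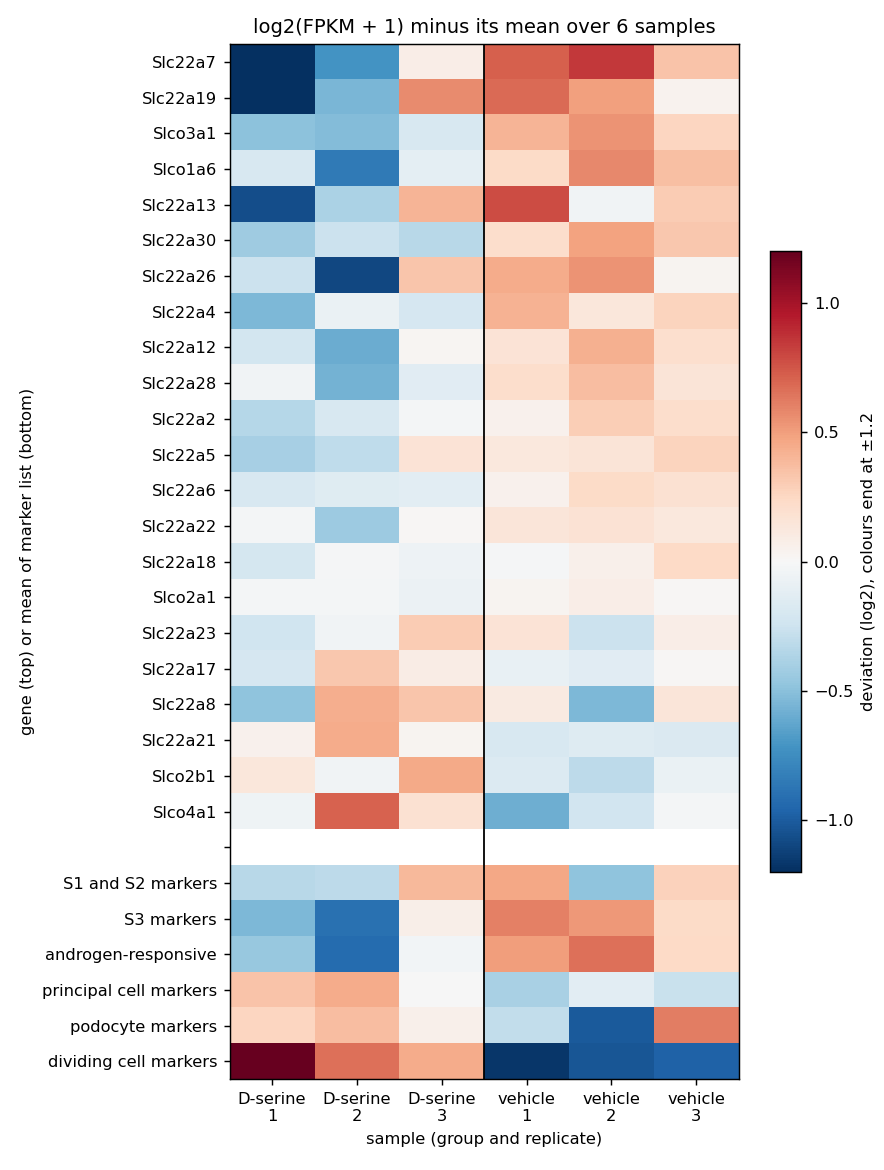
Log2(FPKM + 1) minus its mean over the 6 samples for 22 of the 23 tested genes (upper rows) and, averaged over each marker list, for other genes (lower rows), with D-serine samples on the left and vehicle samples on the right. S3 markers, androgen-responsive genes and many transporters are blue (below their mean) in D-serine replicates 1 and 2, and S1 and S2 markers are blue in vehicle replicate 2 too.

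Marker lists of cell types were read in the same way, and limma called no gene of them at an adjusted p under 0.05. At an unadjusted p under 0.05, 6 of 7 S3 markers, 6 of 8 androgen-responsive genes and 0 of 12 markers of S1 and S2 were lower, and 6 of 8 principal cell and 6 of 6 dividing cell markers were higher. Also higher at that level were 4 of 7 intercalated cell markers, 2 of 5 of the distal convoluted tubule and 1 each of endothelium, macrophages and podocytes, and lower were 1 each of macrophages and hepatocytes. Over all tested genes 14.6% were lower and 13.1% higher at that level, and in 19.4% the D-serine values lay wholly below the vehicle values. Markers of S3, the last segment of the proximal tubule, had 6 of 7 tested members with a negative difference, 5 without overlap, and a median of -0.88, with a summed level of 1908 to 2783 FPKM with D-serine and 3794 to 4080 FPKM with vehicle. Markers of S1 and S2, the earlier segments, had 10 of 12 negative, none without overlap, and a median of -0.13. Their sums were 7432 to 8764 FPKM with D-serine and 8172 to 10040 FPKM with vehicle. The log2 difference was below -0.5 in 3 S1 and S2 markers and in 6 S3 markers, against 5.96% of all tested genes. Vehicle replicate 2 was low in some S1 and S2 markers, such as Slc5a2, which widens the vehicle range there. The difference between the segments was not tested. Androgen-responsive genes, 3 of which also stand in the S3 list, had 8 of 8 tested negative, 6 without overlap and a median of -1.06. Their sums were 93770 to 126700 FPKM with D-serine and 111700 to 137000 FPKM with vehicle. These sums were mostly Kap, which averaged 103000 FPKM with D-serine and 117600 FPKM with vehicle. The groups of Kap overlapped, with a log2 difference of -0.20, so the sums say little of the other genes. Principal cell markers had 7 of 8 positive with a median of 0.69, with sums of 677 to 1016 FPKM against 460 to 615 FPKM. The part of these differences in the lower transporter levels was not tested. The other lists had median log2 differences of -0.07 (thick ascending limb, 6 tested), 0.29 (distal convoluted tubule, 5), 0.39 (intercalated cells, 7), 0.36 (endothelium, 8), 0.27 (macrophages, 6), 0.42 (podocytes, 5), 0.44 (fibroblasts, 4), -0.23 (hepatocytes, 5) and 2.18 (dividing cells, 6). No adrenal or adipocyte marker reached the minimum for testing. The adrenal markers Cyp11b1 and Cyp11b2 were listed at 0 in all samples, while Star was at 0.468 to 1.1 FPKM. Cyp21a1 and Cyp11a1 did not exceed 0.0617 and 0.0766 FPKM. The adipocyte markers Plin1 and Lep were listed at 0 in all samples. Summed adipocyte markers, from Adipoq and Cidec, were at 0, 0.208 and 0.161 FPKM with D-serine and at 0 in all vehicle samples. Summed hepatocyte markers, mostly Ttr, ranged from 88.0 to 164 FPKM with D-serine and from 152 to 274 FPKM with vehicle.

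**Figure D4:**
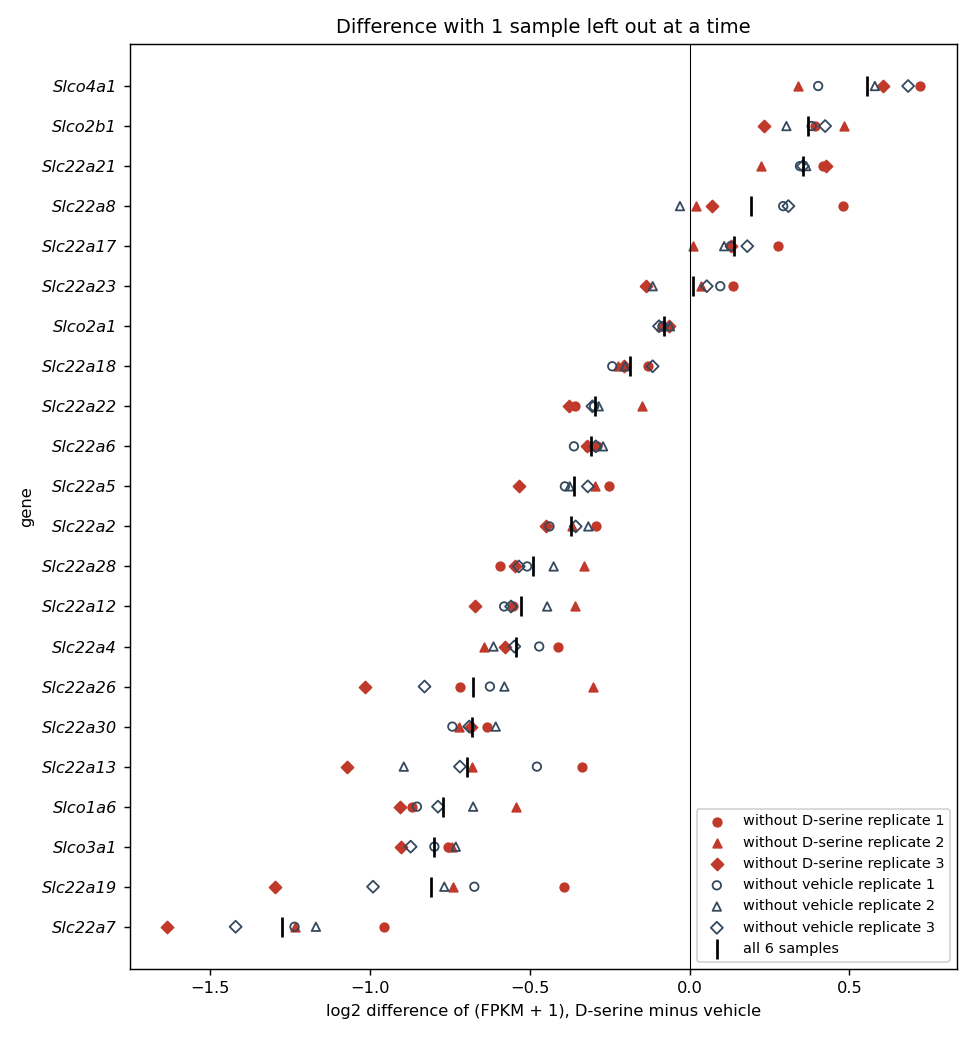
Log2 difference of (FPKM + 1), D-serine minus vehicle, for 22 of the 23 tested genes with 1 sample left out at a time (red filled symbols for D-serine samples, open symbols for vehicle samples) and with all 6 samples (black bars). The sign turned in Slc22a8 without vehicle replicate 2 (-0.03) and in Slc22a23 without D-serine replicate 3 (-0.14) or vehicle replicate 2 (-0.12).

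Genes that work with these carriers were read from 5 lists, and limma called no tested gene of them either. At an unadjusted p under 0.05 there were 4 of 8 exit transporters lower, 4 of 6 gradient genes lower, 0 of 4 scaffold genes either way, 3 of 9 regulators lower and 1 higher, and 3 of 6 carnitine genes lower. Over all tested genes, 14.6% were lower and 13.1% higher at that level, and the groups did not overlap in 19.4% (lower) and 16.5% (higher), which are the shares to set beside the counts of each list. Of the exit transporters for drugs and urate, 7 of 8 tested were lower on average, 4 without overlap, with a median log2 difference of -0.27. Slc17a1, which moves urate and other anions, averaged 332 ± 52.7 FPKM with D-serine and 557 ± 64.4 FPKM with vehicle (SD, n = 3 each; log2 difference -0.75, limma adjusted p = 0.063). Abcc2, an ATP-driven pump for conjugated anions, averaged 42.1 ± 5.53 FPKM and 56.3 ± 2.5 FPKM in the same groups. Slc47a1, the MATE carrier that passes cations from tubule cell to urine after Slc22a2 has taken them up, averaged 338 ± 72.3 FPKM with D-serine and 382 ± 24.7 FPKM with vehicle, and its values overlapped.

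The genes that set up the driving gradients had 5 of 6 members lower on average, 4 without overlap, and a median of -0.40. Slc13a3, the dicarboxylate carrier that feeds the exchange by Slc22a6 and Slc22a8, was at 456, 391.5 and 416 FPKM in the D-serine samples and at 540, 537 and 568 FPKM in the vehicle samples. These groups stood apart (log2 difference -0.38 ± 0.094 SE, n = 3 each, limma adjusted p = 0.080). Slc9a3, the sodium and proton exchanger, averaged 5.998 ± 0.533 FPKM with D-serine and 10.5 ± 2.997 FPKM with vehicle, again without overlap. Among the 4 scaffold genes 3 were lower on average, with a median of -0.17. Pdzk1, the scaffold that holds Slc22a12 and Slc22a5 at the brush border, was at 724, 464 and 730 FPKM with D-serine and 821, 877 and 805 FPKM with vehicle (-0.41 ± 0.18 SE, limma adjusted p = 0.19). Without D-serine replicate 2 the log2 difference was -0.20. Slc9a3r2 overlapped, at 13.5 ± 3.23 FPKM with D-serine and 10.3 ± 2.79 FPKM with vehicle.

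The transcription factors and nuclear receptors known to act on these genes had 7 of 9 tested lower on average, 3 without overlap and 1 higher without overlap. Hnf4a was at 135, 130 and 146 FPKM with D-serine and 195, 174 and 172 FPKM with vehicle, with the groups apart (-0.39 ± 0.098 SE, limma adjusted p = 0.080). Ppara, the receptor for fatty acids, averaged 11.5 ± 1.17 FPKM and 19.8 ± 4.25 FPKM in the same groups (-0.72, limma adjusted p = 0.071). Nr1i2, the pregnane X receptor, ran the other way, at 3.22 ± 0.93 FPKM with D-serine and 1.26 ± 0.251 FPKM with vehicle (0.88, limma adjusted p = 0.067).

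Carnitine genes beside the carriers had 5 of 6 tested lower on average, 1 without overlap, and a median of -0.26. Crot, which joins carnitine to medium-chain fatty acids in peroxisomes, averaged 130 ± 27.1 FPKM with D-serine and 218 ± 34.9 FPKM with vehicle (SD, n = 3 each; log2 difference -0.75, limma adjusted p = 0.074). Cpt1a, which loads long-chain fatty acids onto carnitine for entry into mitochondria, averaged 86.3 ± 18.7 FPKM and 110.3 ± 4.12 FPKM in the same groups, and D-serine replicate 3 overlapped with the vehicle samples.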

How the data were processed

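Kidney RNA of 6 samples was measured with poly(A)-selected libraries (TRIzol extraction and a stranded mRNA kit, per the labels' protocols). The deposited values are FPKM per gene symbol, made by the authors with TopHat2 2.0.13, Bowtie2 2.2.3, SAMtools 0.1.19 and Cufflinks 2.2.1 on mm10, per the submitters' processing notes; no source used here gives the annotation, the strand setting or the read length. FPKM are not counts, so no count test was run. The depth was estimated from steps in low values (under 0.5 FPKM); at that depth 1 FPKM of a 2 kb transcript is about 15.5 to 15.7 fragments.

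Values were transformed to log2(FPKM + 1), which understates the change of low genes. Genes averaging 1 FPKM or more were compared with limma 3.58.1 (R 4.3.3, lmFit, eBayes with trend, two-sided). Benjamini-Hochberg adjustment ran over all 11737 genes, with a threshold of 0.05. The fit was also run on simulated data with independent noise for each gene. Genes within a sample are not independent here, so no result rests on that run. Groups came from the labels. Replicate numbers did not pair the samples (correlations of same-numbered deviations -0.070, 0.0031 and 0.067). Every member was to be named, those at or above 1 FPKM with all values, and of each partner list the 2 genes with the smallest p and a few set genes. The values of 1 member and 2 partner genes are not reported here; these genes remain in the fit and in counts and sums over lists. Members and gene lists were chosen with earlier results of these data known. Gene positions came from GENCODE M21, shared stretches of 50 bases from its transcripts, and promoter windows from RefSeq.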

Additional observations from a re-analysis of the deposited data

How the results depend on the processing

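Limits: 3 samples against 3, an unknown split of fragments between near-identical genes, and an estimated depth bound every value. Over all genes limma called 9; it called 171 with a pseudocount of 0.1, 221 with 0.01, 132 with a minimum of 5 FPKM, 15 with median of ratios scaling, 77 with sum scaling, 269 with sample weights, 332 without small RNA genes and 2 to 437 with 1 sample left out (24 without D-serine replicate 1, 437 without D-serine replicate 3, and 4, 3 and 2 without vehicle replicates 1, 2 and 3). Replicate numbers did not pair the samples; with the replicate block limma called 2 genes and 0 transporters, and no D-serine sample but replicate 3 correlated best with its own number. Of the transporters, 0 were called, but 2 (Slc22a30 and Slco3a1) with either other pseudocount, the minimum of 5 FPKM, sum scaling, sample weights or small RNA genes left out, and 0 to 4 with 1 sample left out. With all samples, 13 transporters were without overlap, 11 lower and 2 higher, where 19.4% of all tested genes were lower and 16.5% higher. With 1 sample left out the count was 13 to 18 (lower 11 to 16, higher 2 to 5, with 5 without D-serine replicate 1). Smaller groups part more easily, and the share of all tested genes was not counted there. The rise is therefore not read as a result about the transporters. The 2 higher were 0 with the minimum of 5 FPKM and 1 with quantile normalization. The median difference was -0.24 with no filter and -0.53 to -0.30 with 1 sample left out. Of partner genes, 0 were called, but 1 with a pseudocount of 0.01, 2 with sample weights, 2 without small RNA genes and 0 to 3 with 1 sample left out. Signs turned for Slc22a8 (-0.030 to 0.48 with 1 sample left out, -0.030 without vehicle replicate 2) and Slc22a23 (-0.011 with sum scaling, -0.014 with sample weights, -0.14 to 0.14 with 1 sample left out, negative without D-serine replicate 3, -0.14, and without vehicle replicate 2, -0.12). Of 391 values of 22 single transporters under 18 alternatives, 370 kept direction and side of the threshold, 16 passed it newly and 5 reversed; of 215 values of 12 partner genes, 207 kept both and 8 passed it newly. Removing a length and GC trend was added after seeing the data and called 9 genes and 0 transporters. The cause of these differences was not tested.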
